A study of Mus musculus with 9 samples.

Results

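The 9 genes described here encode proteins that run the light response of photoreceptors or build the outer segment, the stack of membrane discs in which that response takes place. They are Pdc, Sag, Rcvrn, Gngt2, Aipl1, Rom1, Rp1, Tulp1 and Rbp3. Members were taken as every probe set that the platform annotation gives to exactly 1 of these symbols, which gave 12 of the 45101 probe sets in the table, for 9 of 18193 genes with such a probe set. Each gene was then followed over 9 mouse arrays in 3 groups of 3.

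Retinal progenitor cells (RPCs) of the first 2 groups were made from 46C embryonic stem cells (ESC-RPCs), a gene-targeted derivative of the E14Tg2a.IV line, so both groups rest on 1 cell line. Both were grown as embryoid bodies for 3 days with SB431542, a blocker of Nodal receptors. Both were sorted at day 7 for Sox1, a marker of early neural cells that 35.8% of the cells carried, and then kept in 10 µM DAPT, which blocks Notch processing, and 20 ng/ml bFGF. DKK1, a protein that blocks Wnt receptors, was added to one group at 1 ng/ml for 1 day, and the other group had none. The third group was primary RPCs from C57 mice of postnatal day 1, whose neural retina was dissociated, with no DKK1; the labels name them primary cultured cells. The labels call the arrays of a group biological replicates but do not say which cultures or litters they came from, so the p-values measure the spread between these arrays only.

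Phototransduction starts when light activates an opsin, which switches on transducin and then a phosphodiesterase that lowers cyclic GMP and closes ion channels in the outer segment membrane. Arrestin, recoverin, phosducin and guanylate cyclase with its calcium sensors set how long the response lasts. In mice most rods are born around birth and cones earlier, outer segments grow in the days after, and the transcription factors CRX, OTX2 and NRL switch on many of the genes involved.

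CRX and OTX2 bind a TAATCC core, and the promoters of the members were therefore read for it. RefSeq promoters on GRCm38.p6 matched 6 of the 9 members (Sag, Pdc, Aipl1, Rbp3, Tulp1 and Rom1). In the 250 bases before the start site, TAATCC stood on either strand in 3 of these 6 (Sag, Aipl1 and Rbp3), against 6.25% of 32851 promoters of the table. TGCTGA, a core of NRL sites, stood in the same 3, against 16.1% of all promoters, and AGGTCA, a core of sites of ROR receptors, stood in Sag, against 14.0%. None of the matches overlapped another. The promoters of Sag, Aipl1 and Rbp3 are printed because they hold both CRX and NRL letters, and that of Pdc because Pdc had the largest difference between groups and holds none of the 3 motifs. Capitals mark a motif. Read on the opposite strand, the CRX core becomes GGATTA. The NRL core becomes TCAGCA on that strand. The ROR core becomes TGACCT.
Sag, chr1:87803430-87803679, plus strand: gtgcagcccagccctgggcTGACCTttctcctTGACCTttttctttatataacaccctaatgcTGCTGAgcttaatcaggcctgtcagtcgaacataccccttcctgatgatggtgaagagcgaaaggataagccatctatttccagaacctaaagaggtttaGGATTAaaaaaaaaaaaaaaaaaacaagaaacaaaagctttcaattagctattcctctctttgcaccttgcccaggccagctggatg
Aipl1, chr11:72037510-72037759, minus strand: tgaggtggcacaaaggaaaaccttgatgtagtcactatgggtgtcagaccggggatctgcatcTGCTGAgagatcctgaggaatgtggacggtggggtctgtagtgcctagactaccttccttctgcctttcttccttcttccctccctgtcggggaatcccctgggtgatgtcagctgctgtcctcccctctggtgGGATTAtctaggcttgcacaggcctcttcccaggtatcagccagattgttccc
Rbp3, chr14:33953753-33954002, plus strand: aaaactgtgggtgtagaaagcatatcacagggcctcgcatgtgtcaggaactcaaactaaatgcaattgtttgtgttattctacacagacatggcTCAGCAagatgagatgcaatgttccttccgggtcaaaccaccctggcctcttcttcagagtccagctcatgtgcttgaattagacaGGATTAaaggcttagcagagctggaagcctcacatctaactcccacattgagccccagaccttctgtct
Pdc, chr1:150319167-150319416, plus strand: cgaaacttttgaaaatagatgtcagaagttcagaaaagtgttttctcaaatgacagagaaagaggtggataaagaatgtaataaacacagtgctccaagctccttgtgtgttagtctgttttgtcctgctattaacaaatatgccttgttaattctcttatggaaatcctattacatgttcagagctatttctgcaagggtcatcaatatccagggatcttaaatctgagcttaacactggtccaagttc
GGATTA began 87 bases before the start of Sag, 69 before Rbp3 and 53 before Aipl1. A match describes these letters and does not show that a factor binds there. Among other listed photoreceptor genes, 15 of 67 promoters (22.4%) held the CRX core, 10 (14.9%) the NRL core and 14 (20.9%) the ROR core.

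Values are MAS5 intensities on a linear scale. A value below the 40th percentile of its own array (45.6 to 47.7 on the ESC-RPC arrays, 44.7 to 52.9 on the primary arrays) was treated as dim, and a gene was tested if at least 3 of the 9 arrays lay above it. Of the 12 member probe sets 9 met this, which left 8 genes in a fit of 13320. Of these 8, only Rbp3 reached 3 arrays without counting primary arrays. The other 7 were tested because they were bright in primary cells, so the number of members called lower says nothing by itself. In limma 8 of the 8 tested members were lower in each ESC-RPC group than in primary RPCs, against 26.9% of all genes in untreated and 26.8% in DKK1-treated cells. Of all genes 26.1% and 26% were called higher. The 3 primary arrays lay above all 3 arrays of each ESC-RPC group for 8 of the 8 tested members, against 30.6% and 30.2% of the 13320 genes. They also did so for Rcvrn, which missed the filter. For the same reason as above, this number says nothing by itself. A fold is printed as "at least" where all 3 ESC-RPC arrays were dim, with dim values raised to their array's percentile, and fitted log2 differences are larger because they use the dim values as deposited. Both ESC-RPC groups were compared with the same 3 primary arrays.

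**Figure D1:**
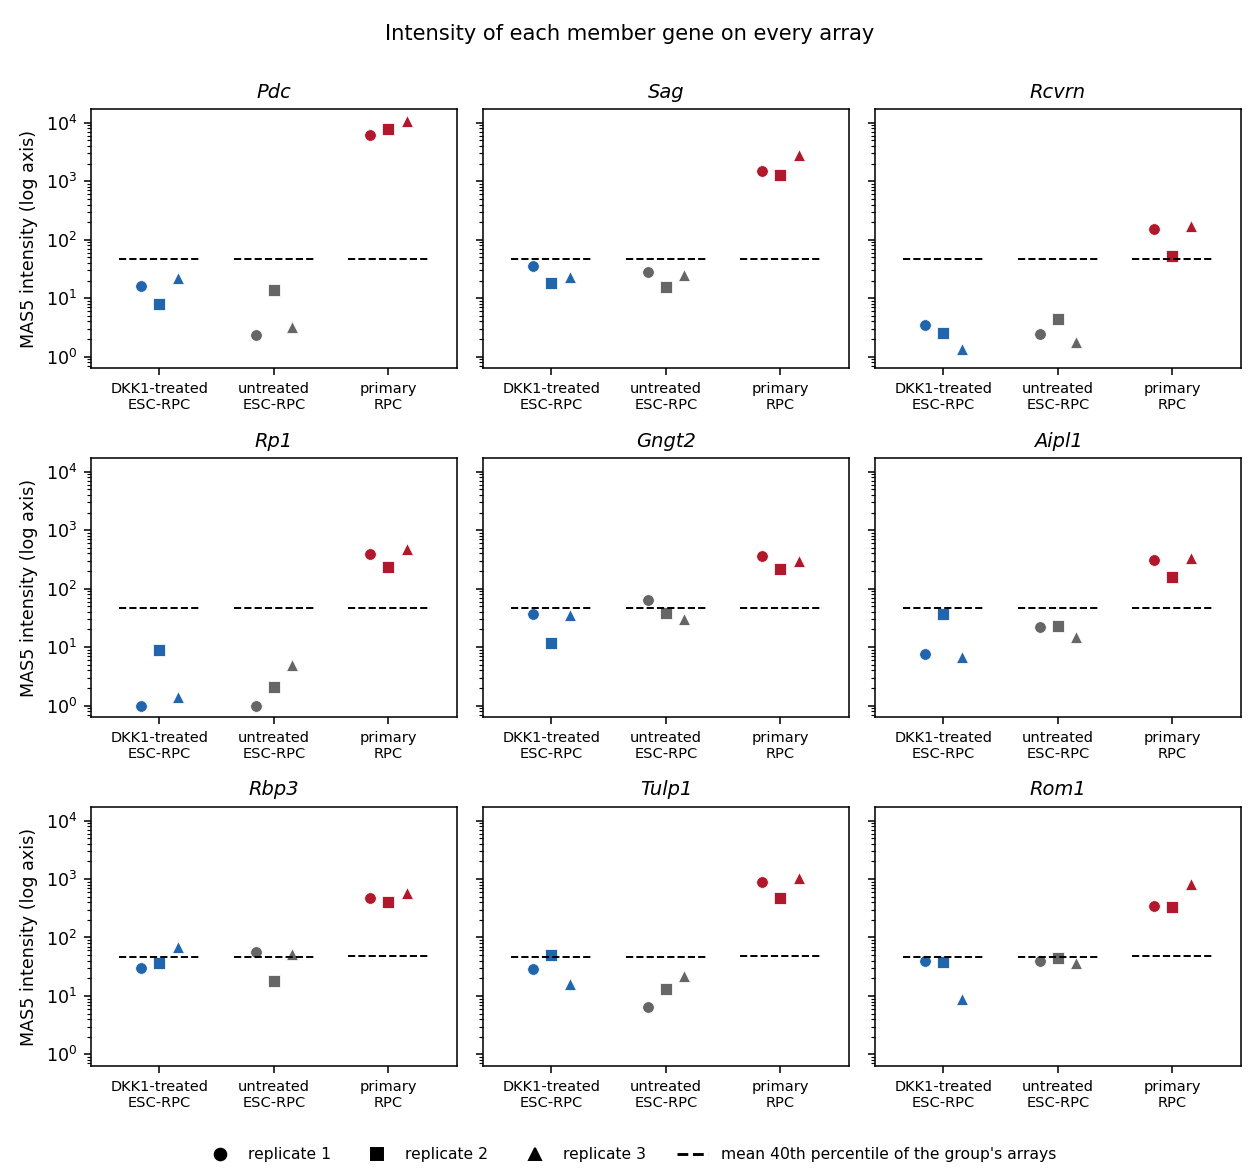
Intensity of the 9 genes on each of the 9 arrays, on a log axis, with 1 point per array, its shape giving the replicate number, and a dashed line at the mean 40th percentile of the group's arrays. Primary arrays lay above the ESC-RPC arrays for every gene, from 6245 to 10661 for Pdc down to 52.9 to 173 for Rcvrn.

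Sag is rod arrestin, which quenches activated rhodopsin. It measured 1502, 1277 and 2841 on the primary arrays, 28.2, 15.7 and 24.5 on the untreated and 35.6, 18.1 and 23.0 on the DKK1-treated arrays. All 6 ESC-RPC arrays were dim and none came near the primary range. Sag was at least 37.7-fold lower in untreated cells (log2 difference -6.31, SE 0.36, adjusted p = 3.27e-07 in limma). In DKK1-treated cells it was at least 37.4-fold lower (-6.16, adjusted p = 3.89e-07).

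Pdc is phosducin, which binds the beta and gamma subunits of transducin. It measured 6245, 7772 and 10661 on the primary arrays, against 2.30, 13.6 and 3.24 on the untreated and 16.1, 7.92 and 21.9 on the DKK1-treated arrays. Pdc was at least 172-fold lower in untreated (log2 difference -10.75, SE 0.60, adjusted p = 2.62e-07 in limma) and at least 171-fold lower in DKK1-treated cells (-9.16, adjusted p = 8.42e-07). The groups were far apart, and the size of the fitted value rested on dim arrays: without untreated replicate 2 it was -11.52.

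Rcvrn is recoverin, the calcium sensor that holds back rhodopsin kinase. It measured 154, 52.9 and 173 on the primary arrays, 2.44, 4.46 and 1.76 on the untreated and 3.45, 2.59 and 1.36 on the DKK1-treated arrays. Primary replicate 2, at 52.86, stood just under its array's 40th percentile of 52.93, so Rcvrn lay above on 2 arrays and missed the filter. With no filter, in a fit of 18193 genes of which 19.5% were called lower in either ESC-RPC group, its log2 difference was -5.39 in untreated (SE 0.68, adjusted p = 0.000112) and -5.61 in DKK1-treated cells (adjusted p = 8.33e-05). Against the percentile the bound was small, at least 2.40-fold and 2.38-fold lower.

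Gngt2 encodes the gamma subunit of cone transducin. It measured 356, 212 and 301 on the primary arrays, 64.7, 38.4 and 30.5 on the untreated and 36.7, 11.9 and 35.7 on the DKK1-treated arrays. Gngt2 was lower in untreated cells (log2 difference -2.74, SE 0.46, adjusted p = 0.000619 in limma), where replicate 1 lay above its percentile and the fold with dim values raised was 5.49. In DKK1-treated cells all arrays were dim and Gngt2 was at least 6.02-fold lower (-3.51, adjusted p = 0.000119).

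Aipl1 is the chaperone that photoreceptors need to fold the phosphodiesterase of the cascade, and 2 probe sets measured it. The brighter gave 305, 158 and 333 on the primary arrays, 22.5, 23.3 and 14.6 on the untreated and 7.72, 36.6 and 6.89 on the DKK1-treated arrays. It was at least 5.41-fold lower in untreated (log2 difference -3.68, SE 0.62, adjusted p = 0.000604) and at least 5.36-fold lower in DKK1-treated cells (-4.34, adjusted p = 0.000199). The other probe set gave 120, 77.9 and 202 on the primary arrays and between 2.80 and 24.8 on the 6 ESC-RPC arrays. When each of 24773 probe sets was tested, 24.7% were called lower in untreated and 24.5% in DKK1-treated cells, and in untreated cells this second Aipl1 probe set differed by -4.22 (adjusted p = 0.00131). In DKK1-treated cells it differed by -3.00 (adjusted p = 0.00957), so both probe sets were called lower in both groups. Between DKK1-treated and untreated cells, where neither was called, the 2 had opposite signs, 1.22 (SE 0.80) for the second and -0.66 for the first. Without DKK1-treated replicate 2, the brightest of its group, the difference of the first in DKK1-treated cells was -5.11.

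Rom1 is a tetraspanin of the disc rim. It measured 348, 330.3 and 806 on the primary arrays, 39.8, 43.8 and 36.4 on the untreated and 39.1, 38.8 and 8.94 on the DKK1-treated arrays. Primary replicate 3 was more than the other 2 primary arrays added together. Rom1 was at least 9.69-fold lower in untreated (log2 difference -3.50, SE 0.55, adjusted p = 0.000376 in limma) and at least 9.61-fold lower in DKK1-treated cells (-4.25, adjusted p = 0.000102). Without DKK1-treated replicate 3 the latter was -3.54.

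Rp1 is a microtubule protein of the photoreceptor axoneme that keeps discs in line. Its brighter probe set measured 395, 235 and 474 on the primary arrays, 1.00, 2.11 and 4.96 on the untreated and 1.00, 8.86 and 1.39 on the DKK1-treated arrays. The lowest of these equal the lowest value in the table. The fitted differences of -7.33 in untreated (SE 1.03, adjusted p = 0.000178) and -7.25 in DKK1-treated cells (adjusted p = 0.000189) had the widest errors of the 8 tested members. The bounds were at least 7.56-fold and 7.49-fold lower. Leaving out 1 array moved the fitted value to -7.92 (without untreated replicate 3), -6.65 (without DKK1-treated replicate 1) or -8.22 (without DKK1-treated replicate 2).

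The other Rp1 probe set was dim on all 9 arrays and did not show the primary signal. It gave 2.10, 3.38 and 1.47 on the primary arrays, 10.7, 9.99 and 13.5 on the untreated and 3.70, 1.64 and 3.15 on the DKK1-treated arrays. Values this far below the 40th percentile were not tested.

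Tulp1 helps carry proteins from the inner to the outer segment. It measured 907, 476 and 1033 on the primary arrays, 6.47, 13.4 and 21.8 on the untreated and 29.3, 50.1 and 15.9 on the DKK1-treated arrays. Tulp1 was at least 16.4-fold lower in untreated cells (log2 difference -5.95, SE 0.53, adjusted p = 7.60e-06 in limma). In DKK1-treated cells replicate 2 lay above its percentile of 46.4, and the fold with dim values raised was 15.8 (-4.74, adjusted p = 3.69e-05).

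Rbp3 is the retinoid carrier that photoreceptors secrete into the matrix around the outer segments. It measured 469, 408 and 585 on the primary arrays, 56.0, 18.2 and 52.6 on the untreated and 30.3, 36.8 and 69.0 on the DKK1-treated arrays. Untreated replicates 1 and 3 and DKK1-treated replicate 3 lay above their percentiles, more ESC-RPC arrays than for any other member. Its differences were -3.68 in untreated (SE 0.44, adjusted p = 6.25e-05) and -3.50 in DKK1-treated cells (adjusted p = 8.71e-05), and with dim values raised the folds were 9.33 and 9.03. A second Rbp3 probe set gave 19.6, 29.7 and 47.2 on the primary arrays, of which only replicate 3 passed its percentile, and 1.00 to 18.0 on the ESC-RPC arrays.

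**Figure D2:**
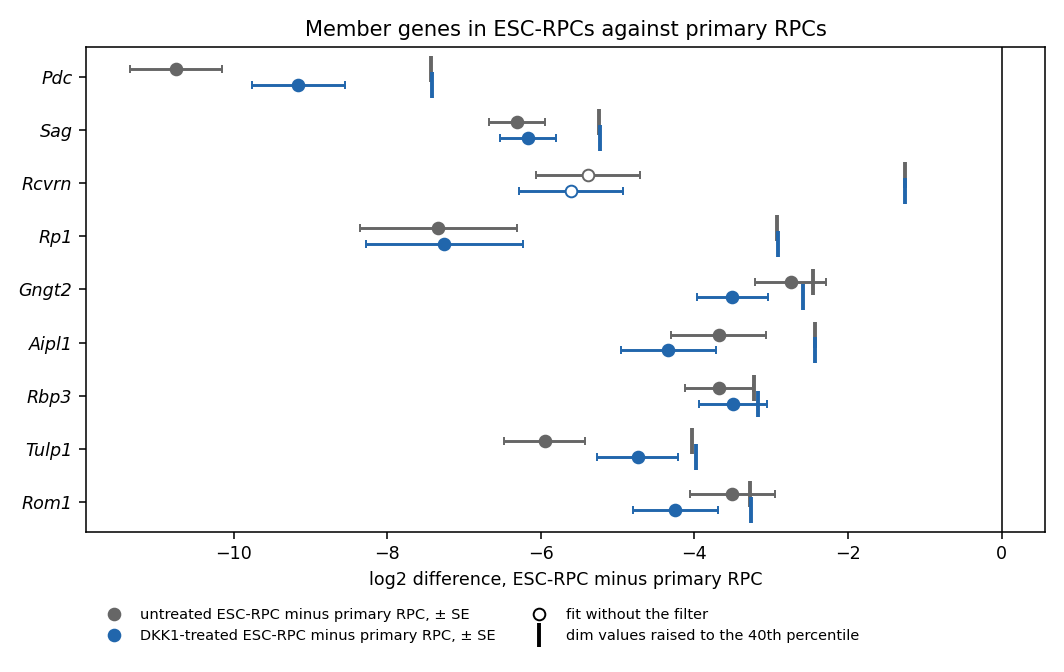
Log2 difference of each gene between ESC-RPCs and primary RPCs, with points for the limma estimate and bars for ± SE, and upright ticks where the difference falls once dim values are raised to their array's 40th percentile. Open points are from the fit with no filter. Pdc stood farthest from 0 on either scale, while Rp1 moved from -7.33 to -2.92 and Pdc from -10.75 to -7.43 when dim values were raised in untreated cells.

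One day of DKK1 left these genes without a called difference. In limma 0 of the 8 tested members and 0 of 13320 genes (0%) passed between DKK1-treated and untreated ESC-RPCs, with 2 members and 308 genes at an unadjusted p under 0.05. The 2 members were Pdc (log2 difference 1.60, SE 0.60, adjusted p = 0.9997) and Tulp1 (1.21, SE 0.53, adjusted p = 0.9997), and for both genes the ranges of the groups overlapped. Except for Tulp1 on DKK1-treated replicate 2, all of those arrays were dim. The log2 differences of the others were Sag 0.15 (SE 0.36), Rp1 0.08 (SE 1.03), Rbp3 0.17 (SE 0.44), Gngt2 -0.76 (SE 0.46), Aipl1 -0.66 (SE 0.62) and Rom1 -0.74 (SE 0.55). The errors were larger than the differences for Sag, Rp1 and Rbp3 and smaller for Gngt2, Aipl1 and Rom1. With errors this wide, the arrays do not show that the groups were alike. The groups did not overlap for 0 of the 8 tested members, against 12% of the 13320 genes. For Rcvrn, which was not tested, they overlapped as well. With the replicate number as a block on the 6 ESC-RPC arrays 65 genes (0.488%) were called, and the smallest adjusted p among the members was 0.439, for Tulp1.

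In bulk RNA fewer cells of a type and less RNA per cell cannot be told apart, so a low value may stand for either. The other genes of the pathway were read from lists of textbook function. Over all 13320 genes the median log2 difference was -0.01 in each ESC-RPC group against primary cells, with 3482 called higher and 3578 lower in untreated cells. Most rod genes were too dim to test. Of 10 rod transduction genes with a probe set, 5 were dim on all 9 arrays, named here after their values were seen: Gnat1, Pde6a, Cnga1, Slc24a1 and Grk1. Pde6b passed its percentile on 1 array, primary replicate 3 (63.0).

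Of the 4 rod genes tested, of which 1 reached 3 arrays above the percentile without the primary arrays, 2 were lower in untreated ESC-RPCs, 1 was higher and 1 did not pass (median -3.05). Pde6g, the inhibitory subunit of the rod phosphodiesterase, measured 890.4 ± 365 in primary cells against 30.5 ± 7.33 (mean ± SD, n = 3), at least 17.8-fold lower. Gngt1, the gamma subunit of rod transducin and the rod counterpart of Gngt2, measured 265 ± 91.0 against 16.6 ± 5.89, at least 5.47-fold lower (adjusted p = 0.00269). Gnb1, the beta subunit that pairs with it but is made in most cells, was higher in untreated ESC-RPCs, at 5113 ± 299 against 3964 ± 114 (log2 difference 0.37, SE 0.07, adjusted p = 0.00151). In DKK1-treated cells 3 were lower and 1 higher (median -3.59). Most of the 4 rod genes passed the filter only through the primary arrays, so these numbers and medians say nothing by themselves.

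Of 8 cone transduction genes tested, 2 reached 3 arrays above the percentile without the primary arrays. In untreated cells 7 of the 8 were lower (median -5.05), against 26.9% of all genes. In DKK1-treated cells 6 were lower (median -4.69), against 26.8%, and in either comparison the rest did not pass. Most of the 8 passed the filter only through the primary arrays, so these numbers and medians say nothing by themselves. Gnat2, the alpha subunit of cone transducin, measured 1555 ± 335 in primary cells against 77.7 ± 12.4 in untreated and 65.0 ± 22.1 in DKK1-treated cells (log2 difference in untreated cells -4.31, SE 0.26, adjusted p = 4.53e-07). Gnb3, its beta partner, measured 1409 ± 601 against 58.2 ± 13.2 and 67.0 ± 12.2. Each of these 2 lay above the percentile on 5 of the 6 ESC-RPC arrays, unlike Gngt2, the gamma subunit, which did so on 1. Pde6h, the inhibitory subunit of the cone phosphodiesterase, was at least 19.7-fold lower in untreated cells, and Cngb3, a subunit of the cone channel, at least 14.0-fold lower.

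Genes of recovery and calcium feedback were split. Of 6 tested, 5 of which passed the filter without the primary arrays, 4 were lower in untreated cells and 2 did not pass (median -0.69; 4 lower and a median of -0.71 in DKK1-treated cells). Rgs9bp, which anchors the protein that switches transducin off, was at least 6.57-fold lower. Guca1a, a calcium sensor of guanylate cyclase, measured 419 ± 210 in primary against 44.3 ± 23.2 in untreated cells. Unc119, a carrier of acylated proteins such as transducin alpha, was bright everywhere, at 3675 ± 986 against 1761 ± 82.4 (log2 difference -1.03, SE 0.16). Gnb5, a beta subunit that partners regulators of this class, measured 965 ± 60.4 against 753 ± 83.4 (log2 difference -0.36, SE 0.11).

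For outer segment and cilium structure, 7 of 11 tested genes (9 of the 11 passed the filter without the primary arrays) were lower in untreated cells, 1 was higher and 3 did not pass (median -0.86), with 7 lower and 1 higher in DKK1-treated cells (median -0.74). Rpgrip1, a protein of the connecting cilium, measured 1950.0 ± 209 in primary against 355 ± 19.4 in untreated cells (log2 difference -2.45, SE 0.11, adjusted p = 5.28e-08). Mak, a kinase of the cilium, was at least 23.3-fold lower, Cdhr1, a cadherin at the base of the outer segment, measured 1534 ± 466 against 103 ± 12.1, and Lca5 measured 904 ± 258 against 331 ± 17.4. Rp2, a widely made protein that helps release cargo at the cilium, was higher in untreated ESC-RPCs, at 966 ± 66.6 against 449 ± 44.4 (log2 difference 1.11, SE 0.11, adjusted p = 1.24e-05). Of 4 retinoid handling genes tested 1 was lower, Abca4, the disc transporter that clears retinal, at 291 ± 89.8 against 43.7 ± 10.4 (median of the 4 0.01 in untreated and 0.13 in DKK1-treated cells). In each of these 5 lists, and among the fate factors, limma called 0 genes between DKK1-treated and untreated cells, and 0 had an unadjusted p under 0.05.

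**Figure D3:**
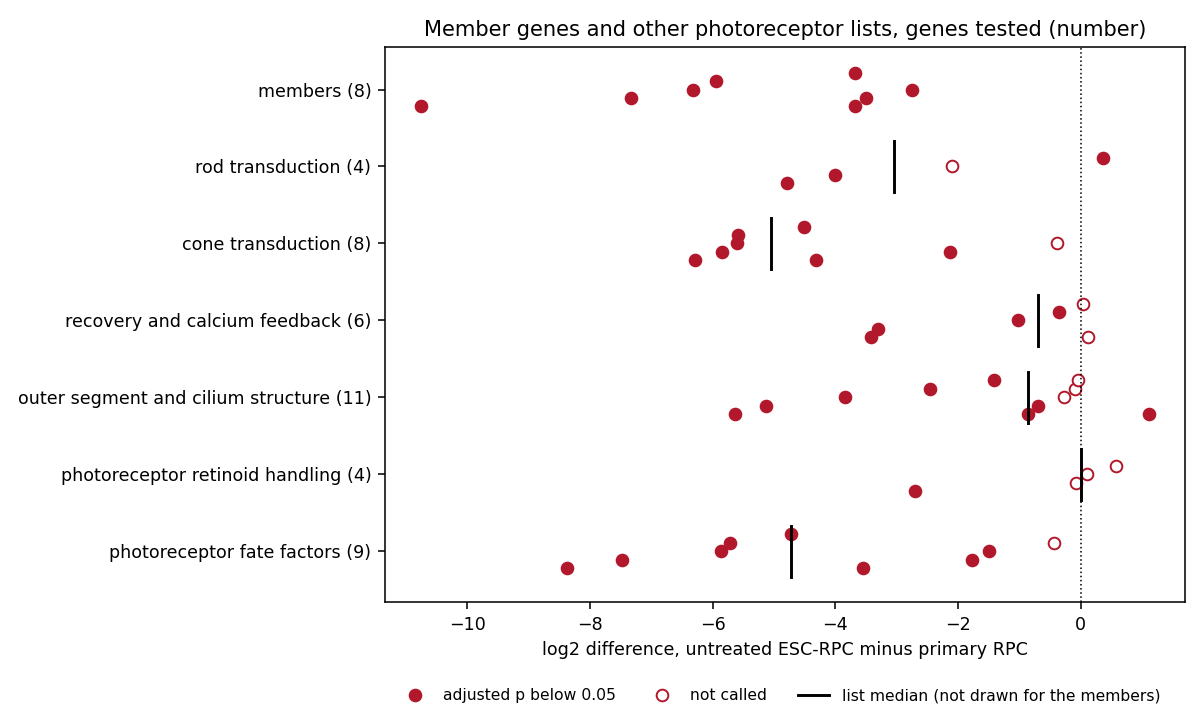
Log2 difference between untreated ESC-RPCs and primary RPCs for each tested member gene and each tested gene of 6 photoreceptor lists, with filled points for an adjusted p below 0.05, open points for genes that did not pass and a bar at each list's median. Medians were -5.05 for cone genes, -4.73 for fate factors, -0.69 for recovery, -0.86 for structure and 0.01 for retinoid genes. Without the primary arrays, 2 of 8 cone genes and 5 of 9 fate factors passed the filter. For recovery, structure and retinoid genes it was 5 of 6, 9 of 11 and 4 of 4. The medians therefore differ in part through the filter.

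The factors that switch on photoreceptor genes were not all dim in ESC-RPCs. Of 9 fate factors tested, 8 were lower in untreated cells, against 26.9% of all genes, and 1 did not pass. The medians were -4.73 in untreated and -4.83 in DKK1-treated cells, where 8 were lower too. Of the 9, 5 passed the filter without the primary arrays. The others passed only through those arrays, so the filter set these numbers and medians in part. Crx measured 4478 ± 1461 in primary cells and was dim on all 6 ESC-RPC arrays, at least 92.3-fold lower in untreated cells, and Nrl, the rod factor, measured 1181 ± 800.0 and was at least 22.0-fold lower. Nr2e3 had no probe set given to it alone. Otx2, which acts before Crx, stayed bright at 5470.01 ± 689 in untreated and 5694 ± 617 in DKK1-treated cells against 15492 ± 3009 in primary cells (log2 difference -1.49, SE 0.14 in untreated cells). Neurod1 measured 1449 ± 182 in untreated, Prdm1 89.8 ± 12.5 and Rorb 197 ± 21.3, each above the percentile on all 6 ESC-RPC arrays and lower than in primary cells (16847 ± 1667, 5288 ± 1407 and 5190 ± 273).

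By a fixed measure of likeness, the 8 genes whose profile over the 9 arrays came closest to the mean of the 9 members were Zfp783, Wdr66, Cdhr1, Cxcl14, Samd7, Tspan15, Gm6958 and Slc1a6. The measure was the root mean square log2 difference between profiles after dim values were raised and each gene centred, and it ran from 0.123 for Zfp783 to 0.224 for Slc1a6. Members themselves lay between 0.223 (Tulp1) and 1.82 (Pdc) from their own mean. Zfp783 measured 561, 424 and 607 on the primary arrays and was dim on all 6 ESC-RPC arrays. Samd7 measured 405, 323 and 659 and was dim on all 6 as well. Cdhr1 and Tspan15 lay above the percentile on all 6 ESC-RPC arrays, with 94.0 to 123 and 245 to 304.

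Primary arrays differed among themselves for the members. Replicate 3 was the highest of the 3 for 8 of the 9 genes and replicate 2 the lowest for 8 of 9. Over the 11841 genes above the percentile on all 3 primary arrays, replicate 3 was the highest for 30.7% and replicate 2 the lowest for 37.4%. Over the 3571 of them called lower in untreated ESC-RPCs, the shares were 30.6% and 31.6%. Rcvrn did not lie above the percentile on all 3 primary arrays, and among the 8 members that did, both counts were 7. The standard deviation of log2 values over the 3 arrays was 0.26 (Rbp3) to 0.72 (Rom1) in these 8 members, against a median of 0.20 over those 11841 genes. In Rcvrn it was 0.94.

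The members did not share 1 pattern of spread. Rom1 and Sag were high on replicate 3 alone, 2.32 and 1.89 times replicate 1, with replicate 2 at 0.950 and 0.850 of replicate 1. Tulp1, Aipl1, Rp1 and Rcvrn were close on replicates 3 and 1, at ratios of 1.14, 1.09, 1.20 and 1.12, and low on replicate 2, at 0.525, 0.519, 0.595 and 0.344 of replicate 1. Pdc alone had replicate 2 above replicate 1, at a ratio of 1.24. Gngt2 alone was highest on replicate 1, and so were 4 of the 7 cone genes above the percentile on all 3 primary arrays: Opn1sw (732, 265 and 400.0), Gnat2 (1931, 1286 and 1450.0), Pde6c (228, 132 and 145) and Cngb3 (947, 439 and 668). Of the other cone genes, Gnb3 and Pde6h were highest on replicate 3 and Slc24a2 on replicate 2. Replicate 1 was also the highest for 5 of 11 such outer segment and cilium genes, and for 29.8% of the 11841 genes. Of the 4 rod genes above the percentile on all 3 primary arrays, Pde6g, Cngb1 and Gngt1 were lowest on replicate 2, at 0.439, 0.682 and 0.802 of replicate 1, and had replicate 3 at 1.05, 1.12 and 1.54 times replicate 1. The fourth, Gnb1, varied little, at 1.03 and 0.968. Nrl, the rod factor, measured 641, 801 and 2099.9, lowest on replicate 1 and highest on replicate 3. The cone and rod genes of this paragraph and Nrl are singled out here after their values were seen, and with 1 array for each value no test was made.

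**Figure D4:**
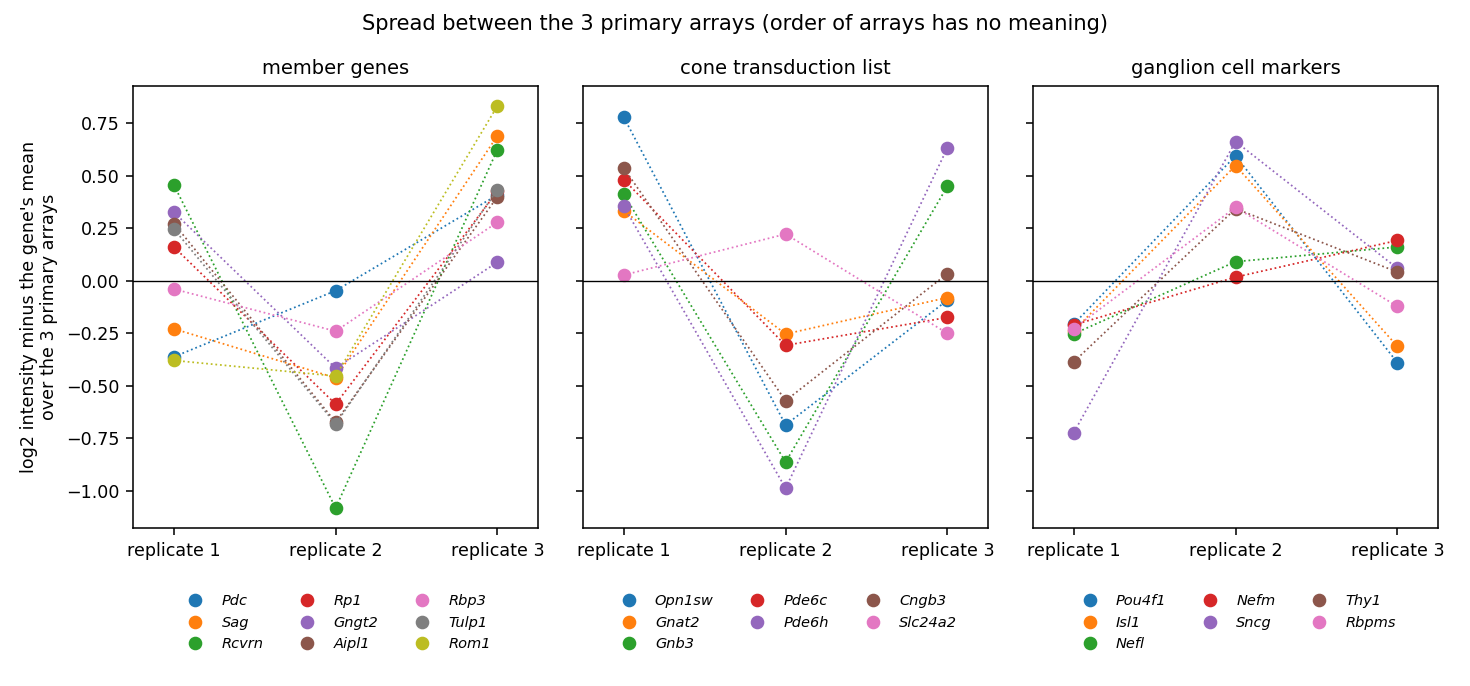
Log2 intensity on each primary array minus the gene's mean over the 3 primary arrays, for the 9 members, the 7 cone genes and the 7 ganglion cell markers above the percentile on all 3, with dotted lines only to join the points of a gene. Replicate 2 was lowest for 8 of 9 members and for 6 of 7 cone genes, and highest for 5 of 7 ganglion cell markers. Bipolar markers are not drawn, and 4 of the 4 above the percentile on all 3 primary arrays were lowest on replicate 2.

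Markers of other cells also differed between the primary arrays, and not all in the same way. On primary replicate 2, where most members were lowest, 5 of 7 ganglion cell markers were the highest of the 3 arrays. The share was 39.4% of the 11841 genes and 44.5% of the 3571 of them called lower in untreated ESC-RPCs. The summed intensity of the ganglion cell markers was 22454 on replicate 2, against 15023 and 19194 on replicates 1 and 3. The lowest array was replicate 1 for 5 of the 7 ganglion cell markers. Of 9 retinal progenitor markers 4 were highest and 2 lowest on replicate 2. Of the 4 bipolar markers above the percentile on all 3 primary arrays 4 were lowest on replicate 2, against 37.4% of the 11841 genes. The highest array was replicate 1 for 2 of them and replicate 3 for 2. Replicate 3 was the highest for 4 of 5 such microglia markers, 5 of 7 such amacrine and horizontal markers and 3 of 5 such Müller glia markers, against 30.7% of the 11841 genes. Their part in the spread was not tested. Between groups, 7 of 9 retinal progenitor markers with a probe set were lower and 2 higher in untreated ESC-RPCs, with sums of 16479 to 20668 on the ESC-RPC and 47980 to 54591 on the primary arrays; the 2 higher ones were Fgf15 and Sfrp2, named after their values were seen. All 6 embryonic stem cell markers were higher in untreated ESC-RPCs (sums of 17091 to 21077 on ESC-RPC against 197 to 275 on primary arrays), as were all 6 mesenchyme markers (16708 to 21070 against 285 to 415), such as Dppa5a at 10411 ± 1243 against 130 ± 21.8 and Col3a1 at 8541 ± 796 against 41.5 ± 17.1. All 7 ganglion cell markers, 5 of 8 amacrine and horizontal cell markers and 4 of 5 tested microglia markers were lower in untreated ESC-RPCs. The 4 microglia markers were dim on all 6 ESC-RPC arrays and passed the filter only through the primary arrays, so their number says nothing by itself. Csf1r, which passed without the primary arrays, was not called. All 7 ganglion cell markers and 7 of the 8 amacrine and horizontal markers passed without them. Of all genes 26.9% were called lower and 26.1% higher in untreated ESC-RPCs. In the amacrine and horizontal list 2 were higher there, Gad1 at 3682 ± 801 against 865 ± 396 and Lhx1 at 1334 ± 236 against 46.4 ± 13.9. Their part in the differences of the members was not tested.

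Bipolar cells, pigment epithelium and pineal gland can make some of the members. Of 4 bipolar markers tested 2 were lower in untreated cells, against 26.9% of all genes. These 2, Pcp2 and Cabp5, were dim on all 6 ESC-RPC arrays and passed the filter only through the primary arrays, so their number says nothing by itself. Cabp5 measured 523 ± 285 in primary against 8.38 ± 6.20 in untreated cells. Prkca and Scgn passed without the primary arrays and were not called (adjusted p = 0.693 and 0.413 in limma). Vsx1 was dim on all 9 arrays. The summed list was 677 to 924 on ESC-RPC and 915 to 1747 on primary arrays. Of 10 pigment epithelium genes with a probe set, Rpe65, Lrat, Best1 and Tyrp1 were dim on all 9 arrays, named here after their values were seen. Tyr passed its percentile on 1 array, DKK1-treated replicate 1 (51.8). Rlbp1, Pmel, Mitf and Ttr lay above the percentile on all 6 ESC-RPC arrays. Of the 5 tested genes of that list 2 were lower in untreated cells, Rlbp1 and Dct, and Dct passed the filter only through the primary arrays. The sums were 495 to 611 on ESC-RPC against 720 to 900.2 on primary arrays. Of 3 pineal genes with a probe set Tph1 was dim on all 9 arrays, Aanat measured 40.1 ± 3.79 in primary and 81.7 ± 11.4 in untreated cells, and Lhx4, which the retina also makes, measured 324 ± 112 against 37.0 ± 33.4. The pineal sums were 86.9 to 186 on ESC-RPC and 311 to 514 on primary arrays. Of 6 Müller glia markers 4 were higher and 2 lower in untreated cells, with sums of 11540 to 13375 against 10560 to 14135.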

How the data were processed

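Total RNA from 9 samples was hybridised to Affymetrix 3-prime arrays as biotin-labelled cRNA. The authors deposited 1 linear intensity per probe set and array, made with MAS5 per the submitters' processing notes, with no version or settings given in the sources used here. The 2% trimmed mean was 500.0 on each of the 9 arrays, and the lowest value was 1. Arrays give no read depth, and their number limits the precision.

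Log2 of each deposited intensity was taken with no further normalisation. The 64 control probe sets were set aside, as were 932 with several genes and 9160 with none. Probe sets above the 40th percentile of their array on at least 3 arrays were kept, and each of 13320 genes was represented by its brightest kept probe set. A limma 3.58.1 model in R 4.3.3 with 1 mean per group and an intensity trend was fitted to all genes, tested two-sided, adjusted by Benjamini-Hochberg and called below 0.05. The model was tested on simulated data.

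Members and lists were chosen with earlier results of these data known. Named were all members, up to 4 called genes of each list with the smallest adjusted p in untreated against primary cells and up to 2 called the opposite way, Crx, Otx2 and Nrl, the brightest markers, and the 8 most alike genes. Deviations of DKK1-treated and untreated arrays with the same replicate number correlated at 0.123, 0.195 and 0.318, so a replicate block was run as an alternative. This pairing comes from the values and not from the labels. The main model did not use it, so the main differences, errors and adjusted p between the ESC-RPC groups are unpaired. Alternatives covered scaling, filter, floor, offset, probe sets, trend, block, samples and each array left out.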

Additional observations from a re-analysis of the deposited data

How the results depend on the processing

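In both comparisons with primary cells the 8 tested members were called lower under every alternative run. Raising dim values to the 40th percentile moved the fitted difference of Pdc from -10.75 to -7.43 and of Rp1 from -7.33 to -2.92 in untreated cells. Without each array in turn, 8 members were called, and genes called numbered 5942 to 7286 (untreated) and 5931 to 7308 (DKK1-treated). Testing each of 24773 probe sets gave 12091 and 12053 calls, against 7060 and 7034 among 13320 genes. The shares called lower were 24.7% and 24.5% of probe sets, against 26.9% and 26.8% of genes. With the replicate block on 9 arrays 7048, 7043 and 0 genes were called in the 3 comparisons. Between the ESC-RPC groups 0 genes became 65 with the replicate block on 6 arrays and 1 without the intensity trend, neither a member; no block changed a member's call. Uncalled differences between these groups changed sign: Aipl1 was 0.28 with the mean of its probe sets. With dim values raised, Aipl1 and Rom1 were both 0.012, which is the difference of the arrays' percentiles and no measure of these genes. With each array left out in turn Sag ran from -0.12 to 0.37, Rp1 from -0.89 to 0.68 and Rbp3 from -0.35 to 0.46. The cause of the other sign changes was not tested.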
